A study of Mus musculus with 2 samples.

Results

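Killer lectin-like receptors are C-type lectin-like proteins on the surface of natural killer (NK) cells and of some T cells, and their genes lie in large part together in one gene complex. The 10 genes described here were chosen by name, of 32432 genes measured: Klra4, Klra7 and Klra8 of the Ly49 family; Klrd1, which encodes CD94; Klrc1 and Klrc2, which encode its partners NKG2A and NKG2C; Klrk1, which encodes NKG2D; Klrb1c, which encodes NK1.1; Klre1; and Klrg1. All 10 had their own entry in each of the 8 count matrices. They were followed in leukocytes of B16-F10 tumours, a transplanted mouse melanoma, by droplet sequencing of single cells that counts the 3' ends of transcripts by unique molecular identifiers (UMIs).

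Male mice of 8 to 12 weeks carried R26CreERT2, a tamoxifen-activated Cre recombinase made from the Rosa26 locus, which is active in most cell types, so the deletion is not limited to lymphocytes. One group had both Trex1 alleles floxed (Trex1 fl/fl, R26CreERT2 ki/wt, here iKO), and the other had 1 floxed and 1 wild-type allele (Trex1 wt/fl, R26CreERT2 ki/wt, here control), so the controls could lose 1 copy too. All mice received 1000 melanoma cells in Matrigel in the skin of both legs, 1 mg tamoxifen on 3 days from day 5, and harvest on day 14; live CD45+ cells were sorted. Each genotype gave 4 hashtagged samples that were run as 1 pool, and the effects of pool and genotype cannot be told apart in any comparison of genotypes. The labels do not say that each hashtag is 1 mouse, and p-values measure the spread between these samples. Trex1, a DNA exonuclease gene, had 2 UMIs in all kept cells, both in 1 control sample, so its transcript could not check the genotype labels.

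By way of background, most Ly49 receptors bind classical MHC class I molecules, and each NK cell usually makes only some of them. Klra7 encodes the inhibitory Ly49G, Klra4 the activating Ly49D and Klra8 the activating Ly49H. CD94 pairs with NKG2A, which inhibits, or with NKG2C, which activates, and both pairs bind Qa-1, encoded by H2-T23. NKG2D is an activating receptor for stress-induced ligands and signals through DAP10, encoded by Hcst, and in mice also through DAP12, encoded by Tyrobp. KLRG1 is an inhibitory receptor that binds cadherins and marks short-lived effector T cells and some regulatory T cells.

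Cells were gated by UMIs of genes outside the family. The NK gate (a UMI of Ncr1, at most 1 of the CD3 genes, none of Cd8b1 or Cd4) held 155 cells, with 29, 42, 7 and 10 in the iKO samples (in the order 1 to 4 here and below) and 21, 8, 34 and 4 in the controls. The CD8 T gate held 4945 cells, of which 1207 and 2395 came from iKO samples 1 and 2. The gamma-delta T gate (at least 2 UMIs of Trdc) held 150 cells, with 7 to 22 per iKO sample and 15 to 32 per control sample, and the gate of all other T cells held 2825. Of the NK cells, 45.2% lay at a threshold of their gate, compared with 15.3% of gamma-delta, 13.2% of other and 2.31% of CD8 T cells. The NK gate itself fixed Ncr1, Cd8b1, Cd4 and the CD3 genes. Of markers that it did not use, Cd40lg, a helper T cell gene, was at 0 in NK cells and Gzma averaged 6347 UMIs per 1000000 (CPM), compared with 72.1 in CD8 T cells. Trac, a T cell receptor gene, averaged 24.3 and 495 CPM, and Trbc2 297 and 1428. Neutrophil genes (S100a8, S100a9, Csf3r) summed to 97.3 to 3333 CPM in iKO NK profiles and 238 to 2775 in control NK profiles. Kept cells held 16605777 to 90194260 UMIs per sample. The median NK, CD8 T, gamma-delta and other T cell held 7861, 15216, 7279.5 and 7909 UMIs in iKO and 5900, 10405, 5813.5 and 5586.5 in control, which bears on every share of cells with a UMI. Levels below are in CPM, UMIs per 1000000 of all UMIs summed over a sample's gated cells (a profile), and a UMI marks 1 transcript end, so no length enters.

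All 8 members with a promoter entry in RefSeq (12 start sites, GRCm38.p6, not the GRCm39 build named for the counts) lay on chromosome 6. The 250 bases before 4 of these starts are shown, 5′ to 3′ on the gene's minus strand. They are Klrc1 (chr6:129678974-129679223), Klrc2 (chr6:129660597-129660846) and Klrk1 (chr6:129623865-129624114), which were found in both NK and CD8 T cells, and Klra8 (chr6:130129899-130130148), which was near 0 in T cells. Klrc2 and Klrk1 were higher in NK than in CD8 T cells. Capitals mark the letters TGTGGT, or ACCACA for the same on the other strand, the core letters of RUNX motifs.
Klrc1: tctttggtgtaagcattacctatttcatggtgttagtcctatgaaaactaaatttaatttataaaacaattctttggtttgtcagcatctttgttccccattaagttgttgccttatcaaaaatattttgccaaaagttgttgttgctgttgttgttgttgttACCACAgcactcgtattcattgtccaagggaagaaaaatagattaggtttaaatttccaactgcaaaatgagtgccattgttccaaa
Klrc2: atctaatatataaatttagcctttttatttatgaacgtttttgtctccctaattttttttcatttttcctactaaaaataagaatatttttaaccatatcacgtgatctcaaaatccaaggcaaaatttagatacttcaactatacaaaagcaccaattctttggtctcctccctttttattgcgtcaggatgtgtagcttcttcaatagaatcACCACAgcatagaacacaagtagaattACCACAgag
Klrk1: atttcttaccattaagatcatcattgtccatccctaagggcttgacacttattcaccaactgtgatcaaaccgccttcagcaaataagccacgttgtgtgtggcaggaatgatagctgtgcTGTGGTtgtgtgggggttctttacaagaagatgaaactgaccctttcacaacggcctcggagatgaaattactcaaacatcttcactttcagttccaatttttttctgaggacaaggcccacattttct
Klra8: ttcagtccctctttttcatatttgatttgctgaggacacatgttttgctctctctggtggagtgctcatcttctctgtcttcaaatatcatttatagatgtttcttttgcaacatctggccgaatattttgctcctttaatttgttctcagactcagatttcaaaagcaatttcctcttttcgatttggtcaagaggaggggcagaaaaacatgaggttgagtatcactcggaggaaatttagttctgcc
These letters occurred on either strand in 6 of the 12 member promoters (Klrb1c, Klrc1, both starts of Klrc2, 1 of the starts of Klre1, and Klrk1) and in 14.0% of 32851 promoters of the same length. They did not occur before the starts of Klra4, Klra7 or Klra8. Klrb1c, which held them, was also near 0 in CD8 T cells. The stretches before the 2 starts of Klrc2 overlap and hold the same 2 matches. Those of Klra8 and of Klre1 overlap too, so the 12 are not independent. GGTGTG, a T-box core, occurred in 0 of the 12 and in 16.3% of all, and GGAAGT, an ETS core, in 1 of the 12 (Klrb1c) and in 19.7% of all. A match of letters describes the sequence and is not a binding site. Klrd1 and Klrg1 are named only.

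Of the 10 members, the Ly49 genes and Klrb1c differed most between NK and CD8 T cells. Klra8 stood at 479, 485, 535 and 606 CPM in iKO NK cells and at 339, 183, 385 and 308 in control NK cells. In CD8 T cells it stood at 0.162, 0.209, 7.35 and 0 in iKO and 3.91, 0, 0.3997 and 0 in control, so the lowest NK profile lay far above the highest CD8 T profile. Klra4 stood at 651, 489.5, 347 and 261 in iKO NK cells and 359, 91.5, 333 and 488 in control NK cells, compared with 0 to 2.04 in CD8 T cells. Klra7 varied most between NK profiles, at 804, 753, 28.9 and 112 in iKO and 432, 238, 190.1 and 386 in control, and the lowest, iKO sample 3 with 7 cells, lay near the highest CD8 T profile (21.4). Klrb1c, the gene of the NK1.1 antigen by which mouse NK cells are often sorted, stood at 434, 443, 419 and 383 in iKO and 604, 530.5, 451 and 129 in control NK cells and at 0.740 to 2.95 in CD8 T cells. The NK profiles with fewer than 10 cells, iKO sample 3 and control samples 2 and 4, rest on 4 to 8 cells each and entered no test.

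NK and CD8 T cells were compared within 5 samples that held at least 10 NK cells (iKO 1, 2 and 4, control 1 and 3) by edgeR's quasi-likelihood test with sample as a block. Of the 10 members, 9 were higher in NK cells and none lower, where 14.7% (1417 of 9608) of all genes tested were called in either direction. The log2 fold changes of the Ly49 genes were 9.63 (SE 0.42, adjusted p = 6.06e-12) for Klra4, 9.54 (SE 0.56, adjusted p = 6.46e-10) for Klra8 and 6.54 (SE 0.54, adjusted p = 7.35e-08) for Klra7, and that of Klrb1c was 8.77 (SE 0.23, adjusted p = 5.64e-15). The size of the first 3 depends on single samples, and their CD8 T counts are few: without iKO sample 2 Klra4 gave 9.01 and Klra8 8.85, without control sample 1 they gave 10.4 and 11.2, and without iKO sample 1 Klra7 gave 5.91. With gates applied to cells thinned to 2000 UMIs the 3 gave 8.79 (Klra4), 8.81 (Klra8) and 7.75 (Klra7), with stricter gates Klra7 gave 7.45, and in DESeq2 Klra8 gave 10.4. The genes that CD8 T cells also held at high levels differed less, by 2.53 (SE 0.23, adjusted p = 3.72e-07) for Klre1, 1.63 (SE 0.18, adjusted p = 2.71e-06) for Klrc2, 1.49 (SE 0.16, adjusted p = 2.09e-06) for Klrk1 and 0.72 (SE 0.13, adjusted p = 0.00107) for Klrd1. Klrg1 differed by 2.52 (SE 0.40, adjusted p = 0.00023). Klrc1 was at 291 ± 143 (SD, n = 8) in NK and 199.5 ± 106 in CD8 T cells. These means include the NK profiles with fewer than 10 cells, which the test left out. In the 5 samples tested Klrc1 did not pass, with a log2 fold change of 0.01 (SE 0.21, adjusted p = 0.98).

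**Figure D1:**
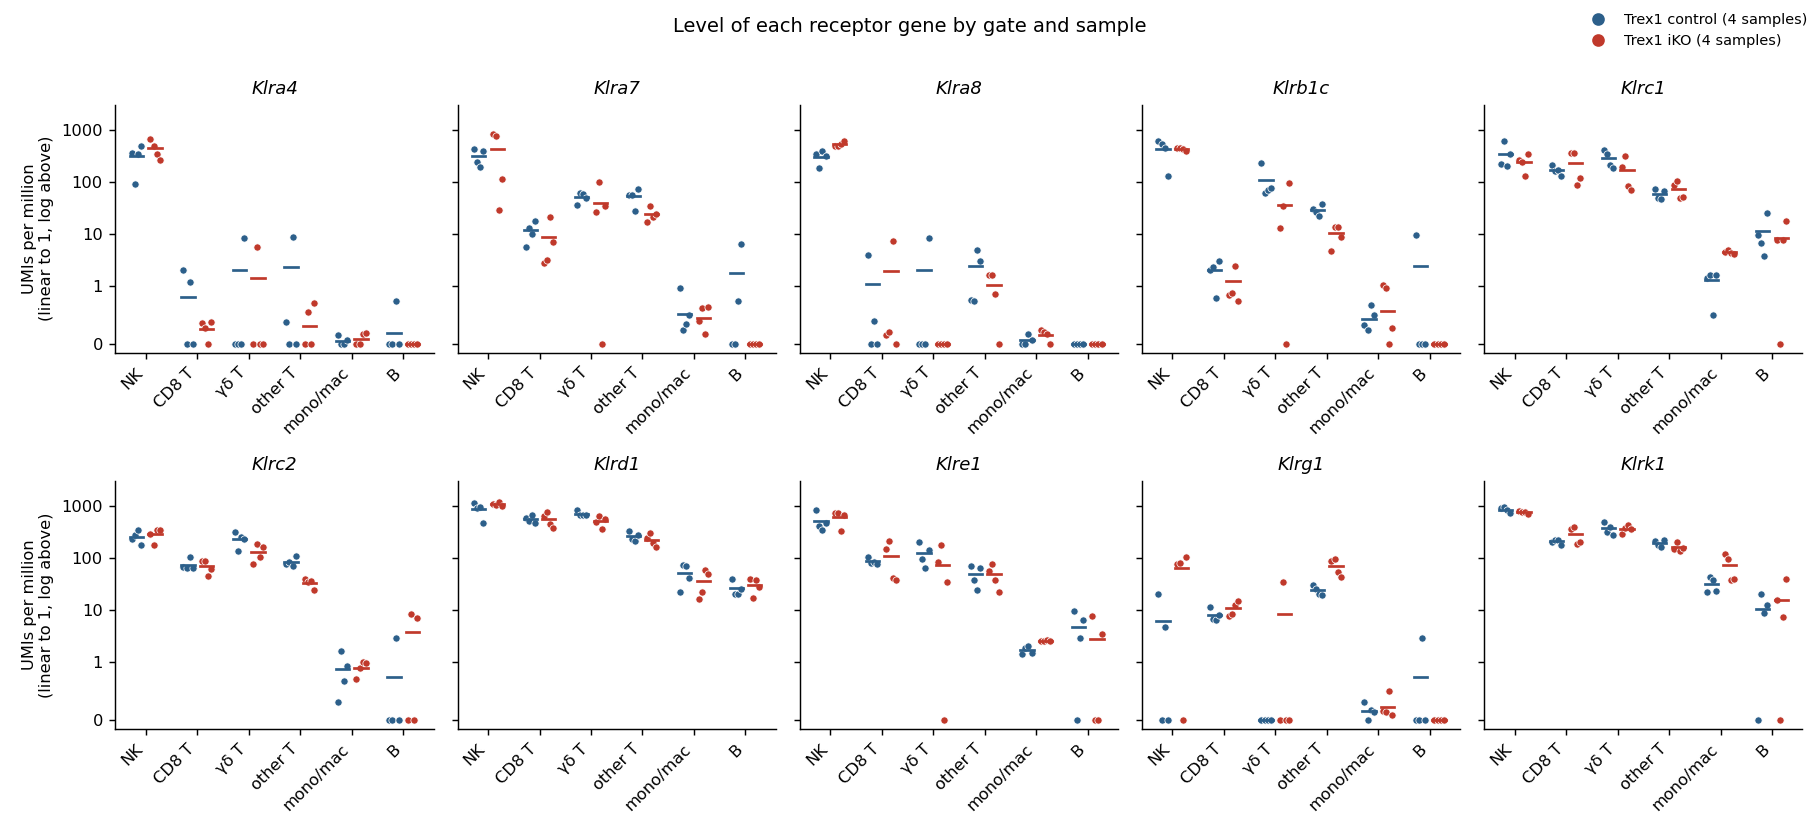
Level of each of the 10 receptor genes (CPM, linear to 1 and logarithmic above) in NK, CD8 T, gamma-delta (γδ) T and other T cells and, for background, in monocyte/macrophage- and B-gated cells; each point is 1 of 4 samples per genotype and each bar the group mean. Klra4 and Klra8 lie between 0 and 8.75 in the T cell gates and at 91.5 or more in every NK profile, while Klrd1 and Klrk1 are high in all 4 lymphocyte gates.

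Single NK cells differed in which Ly49 genes they held. Klra4 had no UMI in 97 of the 155 NK cells, Klra8 in 86 and Klra7 in 78, yet cells with a UMI held a median of 8, 7 and 8 UMIs. By contrast, Klrk1 lacked a UMI in 5 cells and Klrd1 in 10, with medians of 6 and 7 in the others. Of the 3 Ly49 genes, 54 cells had a UMI of none, 32 of 1, 35 of 2 and 34 of all 3. Klrb1c lacked a UMI in 22 cells, Klre1 in 19, Klrc2 in 39, Klrc1 in 60 and Klrg1 in 126. A cell without a UMI is not shown to lack the transcript.

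**Figure D2:**
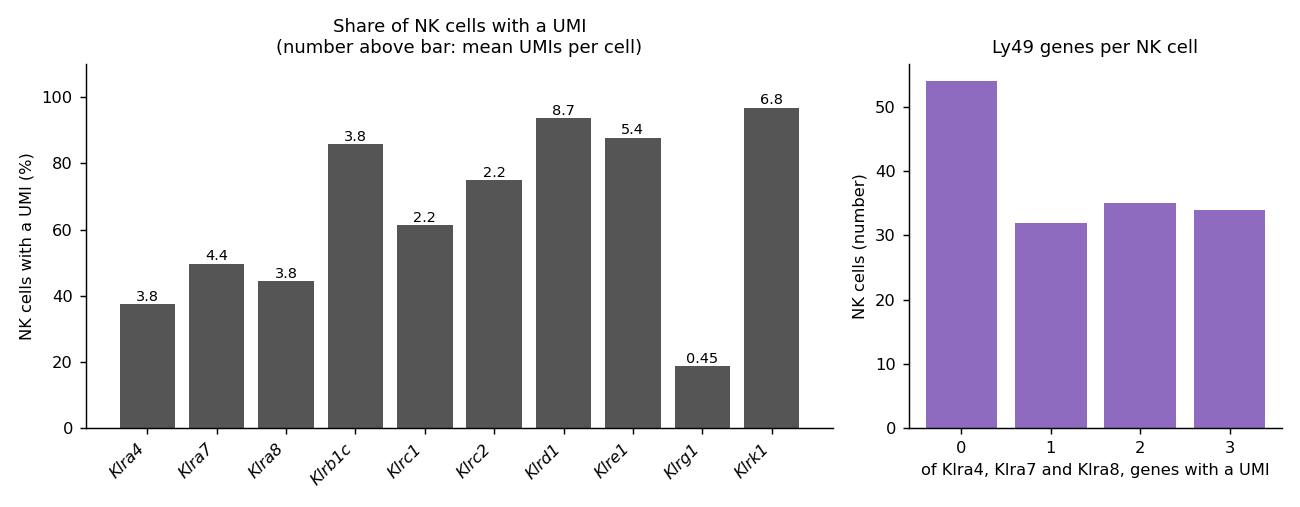
Left, the share (%) of the 155 NK-gated cells with at least 1 UMI of each gene, with the mean UMIs per cell above each bar; right, the number of NK cells by how many of Klra4, Klra7 and Klra8 had a UMI. The Ly49 genes have mean UMIs per cell of 3.77 to 4.42 although 78 to 97 cells have none.

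Klrd1, whose CD94 protein is the shared partner of the NKG2A and NKG2C chains, was at 962 ± 221 CPM in NK, 607 ± 137 in gamma-delta, 556 ± 128 in CD8 and 242 ± 55.5 in other T cells (mean ± SD, n = 8). The means of CPM include the NK and gamma-delta profiles with fewer than 10 cells. The share of cells thinned to 2000 UMIs that had a UMI of Klrd1 was averaged over samples with at least 10 such cells. This mean share was 81.8% in NK, 55.99% in gamma-delta, 54.6% in CD8 and 25.9% in other T cells. The background was 5.87% in B cells and 4.46% in monocyte/macrophage-gated cells at the same depth. Cells with a UMI of Klrc1 had one of Klrd1 more often than cells without. In gamma-delta T cells the shares were 100% of 75 cells and 64.00% of the rest, and in T cells with neither Cd4 nor Cd8 UMIs they were 77.9% and 49.1%. The cells compared had like depths there (medians of 6386 and 6200.0, and of 5693 and 5535 UMIs). In CD8 T cells the shares were 95.4% and 64.7%, but the Klrc1-bearing cells held more UMIs (median 16218, compared with 7962.5). In NK cells the shares were 93.7% and 93.3%, so a UMI of Klrd1 was about as frequent with a UMI of Klrc1 as without one. These shares pool cells over samples and carry no test.

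UMIs of Klrc1 and Klrc2 also met in the same cells: of Klrc1-bearing gamma-delta cells 76.00% had a UMI of Klrc2, compared with 28.00% of the others. In CD8 T cells the shares were 64.9% and 14.6%, but the Klrc1-bearing cells were deeper (median 16218 UMIs, compared with 7962.5). In NK cells the shares were closer, at 77.9% and 70%. The 3' ends of this pair are alike, which limits that reading: of the 60-base windows in the last 400 bases of the annotated transcripts, 49.2% of Klrc1's occur also in Klrc2 or Klrc3, and 17.8% of Klrc2's occur in Klrc1. The figure was 21.1% for Klra7 (a pseudogene, Klra13-ps), 13.6% for Klrb1c and 8.21% for Klra8 (Klra9, Klra3 and a pseudogene), and 0 for the other members. Reads from shared windows could be dropped or split between these genes in counting, and the levels of those 5 are uncertain to that extent.

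Klrk1 stood at 799 ± 83.1 CPM in NK, 367 ± 71.7 in gamma-delta, 245 ± 81.9 in CD8 and 178 ± 30.9 in other T cells (mean ± SD, n = 8). No NK profile (699.7 to 933) overlapped a T cell profile, while the gamma-delta range (281 to 489) overlapped that of CD8 T cells (176 to 385). Its adaptor gene Hcst was detected in 98.5% of Klrk1-bearing and 95.1% of other CD8 T cells, with medians of 16003.5 and 8062 UMIs. Klre1, a receptor that can form both inhibitory and activating dimers, averaged 560.1 ± 197 in NK, 99.2 ± 69.02 in gamma-delta, 97.4 ± 56.9 in CD8 and 48.9 ± 21.4 in other T cells, with the last 3 overlapping. Klrc2 averaged 272 ± 69.1, 184 ± 80.2, 72.8 ± 18.5 and 59.3 ± 30.3 in the same order, and the ranges of NK and gamma-delta cells overlapped.

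Gamma-delta T cells held the NK-type receptors at levels nearer to NK cells than CD8 T cells did for some members and not for others. Of 8 members tested against CD8 T cells within samples (3 iKO, 4 control), 4 were higher in gamma-delta cells and none lower, where 27.9% (2364 of 8486) of genes were called. Klrb1c was higher by 5.51 (SE 0.48, adjusted p = 1.09e-10) on the log2 scale, Klra7 by 2.82 (SE 0.40, adjusted p = 1.67e-06) (4.31 with gates on thinned cells), Klrc2 by 1.22 (SE 0.19, adjusted p = 7.63e-06) and Klrk1 by 0.45 (SE 0.15, adjusted p = 0.0211). The call for Klrk1 did not hold with at least 20 cells per profile (adjusted p = 0.289), with gates applied to thinned cells (0.571), without the low-count filter (0.187), or without control sample 1, 3 or 4 (0.101, 0.0516 and 0.0572). Klrc1 (224 ± 119.5 CPM over all samples, also iKO sample 3, which was not in the test), Klrd1, Klre1 and Klrg1 did not pass. Their log2 fold changes were 0.11, 0.11, 0.0139 and -0.63. Klra4 and Klra8 had 2 UMIs and 1 UMI in all gamma-delta cells and were not tested.

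Other T cells comprised conventional CD4, regulatory and double-negative cells (with neither a Cd4 nor a Cd8 UMI) and 678 further cells with a UMI of Cd8a or Cd8b1 that missed the CD8 T gate. They held more Klra7, Klrb1c and Klrg1 than CD8 T cells and less Klrc1, Klrd1, Klre1 and Klrk1. These were 3 members higher and 4 lower of 9 tested, where 48.1% (5244 of 10892) of genes were called in either direction. The log2 fold changes were 3.44 (SE 0.21) for Klrb1c, 2.36 (SE 0.27) for Klrg1 and 2.21 (SE 0.30) for Klra7, and -1.63 (SE 0.14) for Klrc1, -1.28 (SE 0.09) for Klrd1, -1.06 (SE 0.17) for Klre1 and -0.52 (SE 0.15) for Klrk1, with adjusted p from 1.15e-07 to 0.0113 in edgeR. Klrc2 (-0.53, adjusted p = 0.076) and Klra8 (0.92, adjusted p = 0.39) did not pass, but Klrc2 passed without the low-count filter (adjusted p = 0.000933) and without control sample 2 or 4 (adjusted p = 0.0404 and 0.017). With gates on thinned cells Klra7 gave 2.92 (3.09 with stricter gates) and Klrc1 -0.95, both still called.

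Within other T cells Klrg1 was highest on average in regulatory T cells (Treg, cells with a UMI of Foxp3 and none of Cd8b1). It stood at 175, 236, 118 and 88.3 CPM in iKO Treg cells and 122, 71.9, 51.2 and 65.5 in control Treg cells, compared with 2.30 to 53.7 in conventional CD4 T cells and 0 to 24.9 in double-negative cells. In the cells with a Cd8 UMI it lay at 17.2 to 67.8. Against conventional CD4 T cells it was higher by 2.80 (SE 0.21, adjusted p = 5.41e-08) on the log2 scale, and by 0.93 (adjusted p = 0.00483) with gates on thinned cells. Of the 7 members tested in this comparison, 1 was higher and 4 were lower in Treg cells, where 26.8% (2187 of 8147) of genes were called. The lower 4 were Klrk1 (-2.35), Klrc1 (-1.93), Klrd1 (-1.83) and Klrc2 (-1.80), with adjusted p from 2.03e-05 to 0.000614. With gates on thinned cells Klrk1 gave -1.72 and Klrc1 -1.14, both still called. Klra4 and Klra8 had no UMI in any of 573 Treg cells. The double-negative cells held more Klrb1c, Klra7 and Klrd1 than Treg cells. Klrb1c averaged 49.2 ± 19.5, Klra7 78.1 ± 20.6 and Klrd1 375 ± 69.9 there, compared with 2.75 ± 3.04, 7.53 ± 14.4 and 62.3 ± 80.8 in Treg cells. Conventional CD4 T cells lay between for Klrd1 by share of cells with a UMI, unthinned. The means were 54.4% in double-negative, 31.2% in conventional CD4 and 17.9% in Treg cells. These are descriptions with no test.

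CD8 T cells were split by UMIs of Tcf7, a transcription factor of memory and progenitor cells, and Pdcd1, which encodes the PD-1 checkpoint receptor. Cells with Pdcd1 and without Tcf7 held more Klrc1, Klre1 and Klrg1 and less Klra7 and Klra8 than cells with Tcf7 and without Pdcd1. That was 3 members higher and 2 lower of 8 tested, with sample as a block, where 53.9% (4412 of 8181) of genes were called. Klrc1 stood at 371, 374, 63.4 and 154 CPM in the Pdcd1 cells of iKO and 227, 196, 235 and 139 in those of control, compared with 163, 81.6, 151 and 69.8 and 105, 94.5, 48.7 and 103 in the Tcf7 cells. It was higher in the Pdcd1 cells of every sample except iKO sample 3, and the log2 fold change was 0.93 (SE 0.25, adjusted p = 0.00493). Klre1 differed by 0.97 (SE 0.24, adjusted p = 0.00268). Klrg1 differed by 1.59 (SE 0.47, adjusted p = 0.00835), and by 2.44 without iKO sample 2.

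Klra7 went the other way: in the Tcf7 cells it stood at 53.2, 34.5, 24.1 and 10.9 in iKO and 36.6, 31.5, 26.7 and 39.4 in control, and in the Pdcd1 cells at 1.41, 1.66, 14.98 and 0.754 and 1.03, 0, 0.740 and 0. It was lower in the Pdcd1 cells of all 8 samples, by -4.55 (SE 0.45, adjusted p = 2.59e-07) on the log2 scale, by -5.15 without iKO sample 3, whose 2 subsets lay closest, and by -3.44 with gates on thinned cells. Klra8 rests on 2 samples: in the Tcf7 cells it stood at 36.2 in iKO sample 3 and 38.3 in control sample 1 and at no more than 1.57 in the other 6. The edgeR test called it lower in the Pdcd1 cells (-5.69 (SE 1.00, adjusted p = 0.000246)), DESeq2 did not (adjusted p = 0.376), and without either sample it did not reach the count needed for a test. Klrd1 (0.13), Klrk1 (0.29) and Klrc2 (-0.18) did not pass. With library size scaling Klrd1 (0.31, adjusted p = 0.0429) and Klrk1 (0.47, adjusted p = 0.00846) passed. Both also passed without the low-count filter (adjusted p = 0.00795 and 0.000113), Klrd1 with gates on thinned cells (0.45, adjusted p = 0.00437), and Klrk1 without iKO sample 3 or 4 (adjusted p = 0.0448 and 0.047). Median UMIs per cell ran over samples from 8706 to 19289 in iKO and 13223 to 16417 in control Pdcd1 cells, and from 7846 to 10443.5 and 7213 to 7907 in Tcf7 cells.

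**Figure D3:**
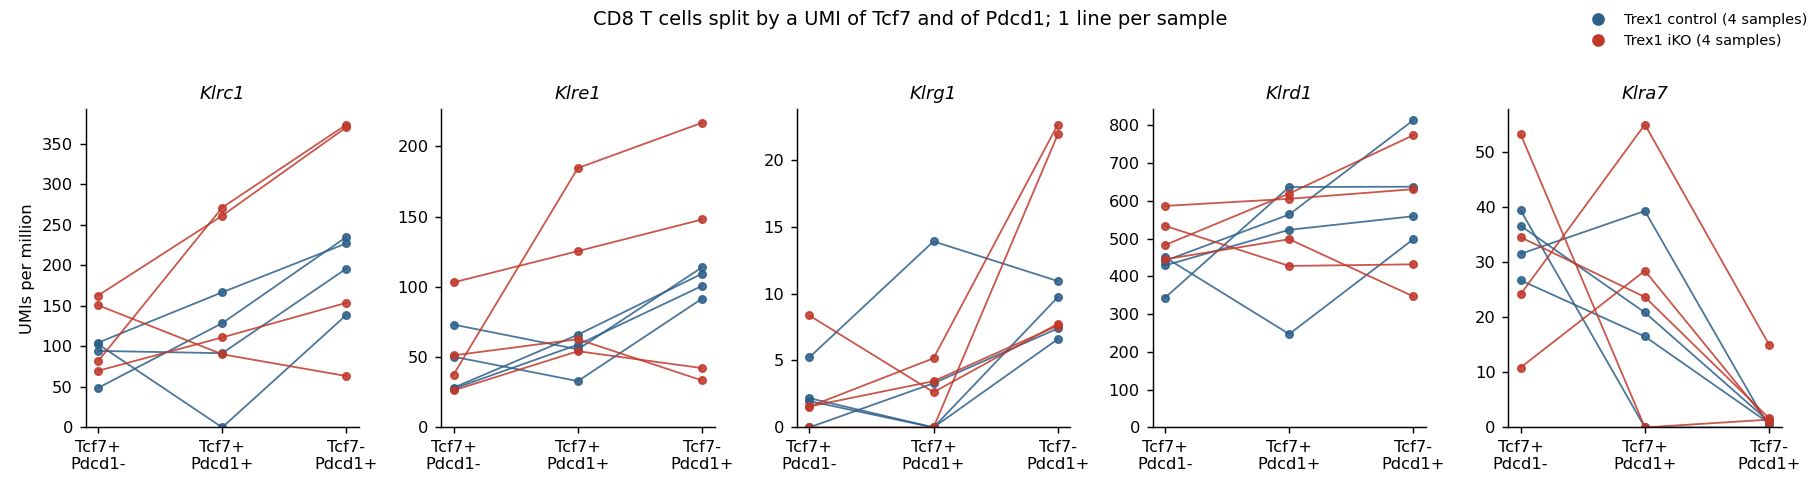
CPM of 5 receptor genes in CD8 T cells split by a UMI of Tcf7 and of Pdcd1, with 1 line per sample, 4 per genotype. Klra7 ends at 14.98 or lower in the cells with Pdcd1 and without Tcf7, and Klrc1 rises toward them in 7 of 8 samples, with iKO samples 1 and 2 at 371 and 374.

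The design's question was how loss of Trex1 in the host shapes the response to the tumour, so each member was compared between genotypes within each gate. In CD8 T cells none of the 7 members tested passed, where 3.83% (365 of 9520) of genes were called. Klrc1 stood at 359, 362, 86.95 and 119.9 in iKO and 209.5, 161, 171 and 127 in control: iKO samples 1 and 2 lay above every control and iKO samples 3 and 4 below every control, and its log2 fold change was 0.52 (SE 0.41, adjusted p = 0.55). Klre1 (145, 210.2, 41.6 and 37.4, compared with 103, 81.4, 83.1 and 77.5) split the iKO samples the same way. Klrk1 stood at 365, 385, 184 and 201 in iKO and 207, 222, 223 and 176 in control, a log2 fold change of 0.49 (SE 0.23, adjusted p = 0.305). Beside this, the share of CD8 T cells with Pdcd1 and without Tcf7 was 87.1%, 85.8%, 44.0% and 40.9% in iKO and 61.3%, 50.7%, 36.0% and 37.1% in control, and its part in these levels was not tested. The other 4 tested had log2 fold changes of -0.86 (Klra7), 0.22 (Klrg1), -0.0131 (Klrc2) and -0.00462 (Klrd1), with adjusted p from 0.539 to 0.995.

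In gamma-delta T cells (3 iKO samples with at least 10 cells, 4 control) none of 5 members passed, where 0.991% (18 of 1816) of genes were called. Log2 fold changes were -0.79 for Klrc2, -0.54 for Klrc1, -0.37 for Klrd1, -0.26 for Klre1 and -0.18 for Klrk1, with adjusted p from 0.362 to 0.872. With 7 to 32 cells per sample, the 3 UMIs that an observed 0 allows correspond to 17.2 to 63.3 CPM, so the low members (Klra4, Klra8 and Klrg1) were not resolved at this depth. Klrb1c stood at 12.97, 34.3, 0 and 95.5 in iKO and 226, 59.8, 69.4 and 74.5 in control gamma-delta cells, and the groups overlapped. Klrd1 stood at 499, 635, 359 and 565 in iKO and 824, 658, 654 and 662 in control. Every control lay above every iKO profile, the lowest of which (sample 3, 7 cells) was not in the test.

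In other T cells 4 members differed by genotype. Klrg1 was higher in iKO, and Klrc2, Klrb1c and Klra7 were lower: 1 member higher and 3 lower of 8 tested, where 14% (1407 of 10074) of genes were called, a share below the 4 of 8 here. Klrg1 stood at 87.1, 93.3, 53.04 and 42.9 CPM in iKO and 30.3, 25.8, 20.6 and 19.3 in control. Every iKO sample lay above every control, and the log2 fold change was 1.54 (SE 0.25, adjusted p = 0.00614). Klrc2 stood at 39.8, 34.8, 35.5 and 23.7 in iKO and 76.2, 84.5, 70.02 and 110.1 in control, again without overlap, and was lower by -1.35 (SE 0.18, adjusted p = 0.00313). Klrb1c stood at 4.63, 13.6, 13.7 and 8.73 in iKO and 29.9, 26.2, 21.5 and 37.1 in control. Its groups did not overlap, and its log2 fold change was -1.48 (SE 0.30, adjusted p = 0.0118). Klra7 stood at 16.6, 34.1, 21.4 and 24.1 and 56.3, 55.7, 27.7 and 74.1, with iKO sample 2 above control sample 3, and was lower by -1.11 (SE 0.30, adjusted p = 0.0343).

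Of these 4 calls, that of Klrg1 held in all 16 alternatives tried. With gates applied to cells thinned to 2000 UMIs, Klrc2 (-0.62, adjusted p = 0.096), Klrb1c (-1.47, adjusted p = 0.058) and Klra7 (-1.03, adjusted p = 0.0736) no longer passed. The call of Klra7 also failed when any sample except iKO sample 2 or control sample 3 was left out, with adjusted p from 0.052 to 0.0878 in edgeR. The other 4 members did not pass: Klrc1 (0.31), Klrk1 (-0.26), Klrd1 (-0.24) and Klre1 (0.0215), with adjusted p from 0.229 to 0.98. Of the marker genes in this gate, ILC1 genes (4 of 4 detected) summed to 414 to 550 CPM in iKO and 583 to 970 in control, without overlap. Treg genes (4 of 4) summed to 1277 to 1806 and 846 to 1376, and the CD8 genes Cd8a and Cd8b1 to 72.97 to 409 and 42.8 to 195. Both of these overlapped between the genotypes. The part of these cells in the 4 differences was not tested.

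**Figure D4:**
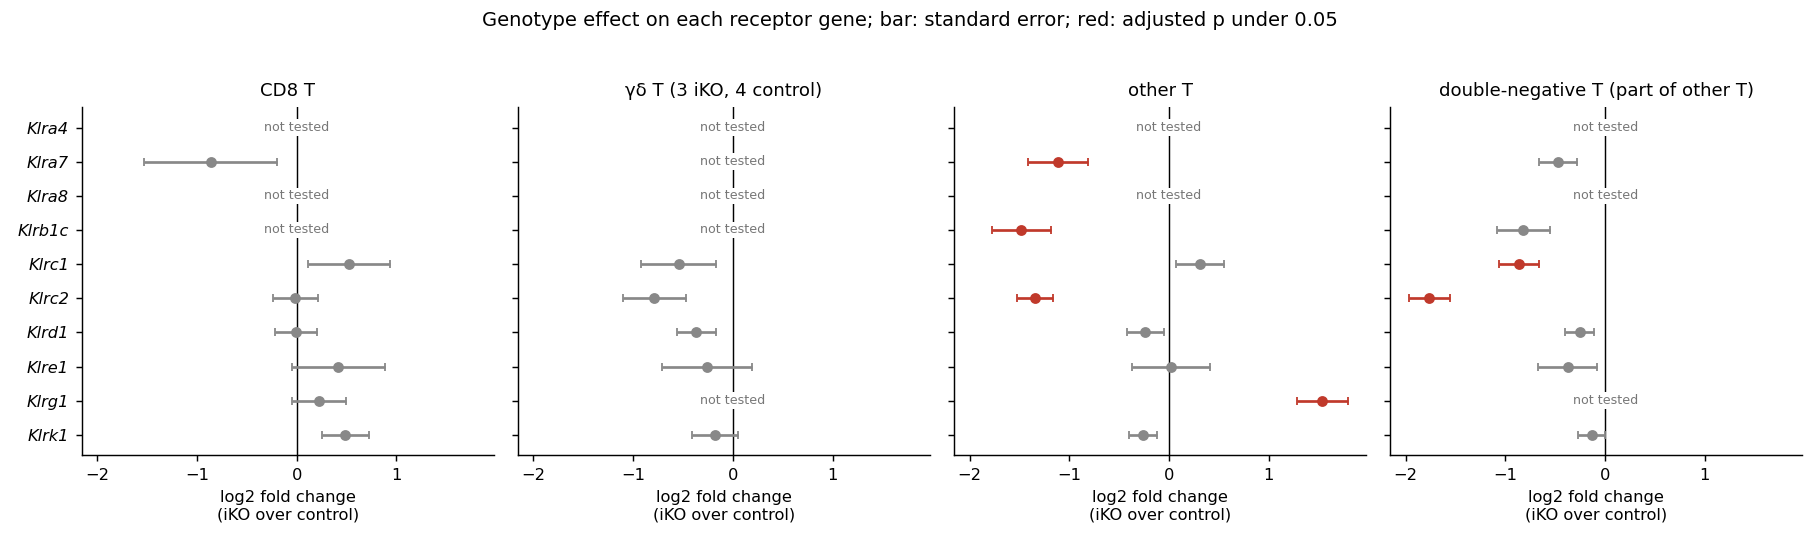
Log2 fold change (iKO over control) of each receptor gene in CD8, gamma-delta and other T cells and in the double-negative part of other T cells; points are edgeR estimates, bars standard errors, red an adjusted p under 0.05, and "not tested" marks genes below the count filter. Among other T cells Klrg1 lies at 1.54, to the right, and Klrb1c, Klrc2 and Klra7 lie at -1.48, -1.35 and -1.11, to the left.

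The make-up of the other T gate, by detected UMIs, differed between genotypes as well. Treg cells were 25.3 ± 4.62% of the gate in iKO (18.7% to 29.4%) and 14.6 ± 4.99% in control (8.13% to 20.1%). Double-negative cells were 22.3 ± 4.77% in iKO (16.8% to 28.3%) and 39.9 ± 6.18% in control (35.1% to 48.4%), with no overlap. The cells with a Cd8 UMI were 31.9 ± 4.05% in iKO (27.2% to 36.2%) and 17.3 ± 3.55% in control (13.6% to 21.5%), again without overlap. Conventional CD4 T cells were 20.5 ± 5.31% and 28.2 ± 4.26%. These parts were set by detection of UMIs of Cd4, Cd8a, Cd8b1 and Foxp3. The iKO cells of this gate were deeper, with a median of 7909 UMIs compared with 5586.5 in control. The make-up at equal depth is not given here, and the part of depth in these shares was not tested. In a summed profile fewer cells of a type and less RNA per cell cannot be told apart, and Klrg1 is a Treg-rich gene here while Klrc2, Klrb1c and Klra7 are rich in double-negative cells. The comparison was therefore repeated within 3 parts (Treg, double-negative and Cd8-bearing cells), which was added after the data were seen.

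Within Treg cells none of the 3 members tested passed, where 1.66% (111 of 6684) of genes were called. Klrg1 had a log2 fold change of 0.99 (SE 0.32, adjusted p = 0.156), with iKO and control samples overlapping at the levels given above, Klrk1 -1.37 (SE 0.42, adjusted p = 0.146) and Klrd1 -2.08 (SE 0.58, adjusted p = 0.103). Klrd1 stood at 24.3, 23.98, 26.01 and 17.7 in iKO and 256, 40.3, 29.4 and 80.9 in control Treg cells, without overlap, with control sample 1 far above the rest. The Klrg1 difference passed without iKO sample 4 (adjusted p = 0.0486) and without control sample 1 (adjusted p = 0.03). Without the low-count filter all 3 passed, Klrg1 (adjusted p = 4.94e-06), Klrk1 (adjusted p = 0.00109) and Klrd1 (adjusted p = 2.13e-13), and Klrk1 passed in DESeq2 (-1.55, adjusted p = 0.0314). Conventional CD4 T cells, the remaining part of the other T gate, were not tested by genotype. Klrc1, 1 of the 10 members, stood there at 40.6, 36.5, 106 and 82.3 (iKO) and at 32.1, 34.1, 22.6 and 28.3 (control). Its groups did not overlap, but the lowest iKO value (36.5) lay near the highest control value (34.1). How many other members or genes separate this way was not counted, so no genotype difference is shown in this part.

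Within double-negative cells 2 of 7 members tested were lower in iKO and none higher, where 15.1% (1101 of 7270) of genes were called. Klrc2 stood at 74.6, 39.5, 47.1 and 34.9 CPM in iKO and 151, 174, 182 and 156 in control. Every control lay far above every iKO sample, and the log2 fold change was -1.76 (SE 0.21, adjusted p = 0.00133), a call that held in all 16 alternatives. Klrc1 stood at 53.6, 35.1, 44.6 and 57.8 and 96.7, 73.4, 106 and 78.8, without overlap, and was lower by -0.86 (SE 0.20, adjusted p = 0.0175). That call ended with stricter gates (-0.49, adjusted p = 0.147), without iKO sample 2 (adjusted p = 0.0581) or without control sample 3 (adjusted p = 0.0576), and its direction turned with gates on thinned cells (0.28, adjusted p = 0.636). Klrb1c (-0.82 (SE 0.27, adjusted p = 0.0576)), Klra7 (-0.47), Klre1 (-0.38), Klrd1 (-0.26) and Klrk1 (-0.14) did not pass. Klrb1c passed with gates on thinned cells (-1.18, adjusted p = 0.0362), without the low-count filter (adjusted p = 0.0306) and without iKO sample 3 (adjusted p = 0.0101).

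In these double-negative profiles the T cell genes Cd3d, Cd3e, Cd3g, Trac and Trbc2 summed to 1481 to 1709 CPM in iKO and 1977 to 3175 in control, without overlap. Transcripts of other cells overlapped between the genotypes. Monocyte/macrophage genes (6 of 6 detected) summed to 872 to 2036 in iKO and 685 to 1158 in control. Neutrophil genes (3 of 3 detected) summed to 1900 to 37143 in iKO and 3104 to 12644 in control. Of the adaptor and signalling genes, 3 of 13 tested were higher in iKO and 3 lower, where 15.1% of all genes were called. The adaptors Tyrobp (0.82) and Fcer1g (0.85), both also higher in NK than in CD8 T cells, and the phosphatase Ptpn6 (1.20) were higher. Cd247 (-0.98) and Hcst (-0.91) were among the lower ones. The part of all these transcripts in the differences of Klrc1 and Klrc2 was not tested.

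Within the 678 other T cells with a Cd8 UMI, 1 of 8 members tested was higher in iKO and none lower, where 2.12% (153 of 7211) of genes were called. Klrg1 stood at 67.8, 67.5, 53.3 and 64.3 CPM in iKO and 19.5, 33.2, 17.2 and 27.1 in control. Every iKO sample lay above every control, and the log2 fold change was 1.40 (SE 0.22, adjusted p = 0.00978), a call that held in all 15 alternatives in which it was tested. Klrb1c stood at 2.44, 12.2, 5.92 and 4.68 and 14.99, 18.99, 25.8 and 25.2, without overlap, but did not pass (-1.63 (SE 0.43, adjusted p = 0.0698)). Klra7 (-1.58 (SE 0.40, adjusted p = 0.059)) and Klrc2 (-0.70 (SE 0.26, adjusted p = 0.189)) overlapped and did not pass either. Klrb1c passed without the low-count filter (adjusted p = 0.0358), with stricter gates (adjusted p = 0.0449) and without iKO sample 2 (adjusted p = 0.0245), and Klra7 in DESeq2 (adjusted p = 0.00419), without the filter (adjusted p = 0.00654) and without control sample 3 (adjusted p = 0.014). Klre1 (0.45), Klrc1 (0.43), Klrd1 (0.0719) and Klrk1 (0.0240) did not pass. Treg genes summed to 1208 to 1424 CPM in these iKO cells and 748 to 1452 in control, compared with 263 to 337 and 282 to 494 in CD8 T cells. Cd4 and Cd40lg summed to 94.7 to 131 and 77.4 to 181, compared with 0.232 to 3.06 and 0 to 1.20 in CD8 T cells. The Klrg1 call in this part is thus not a result about CD8-type cells alone. Monocyte/macrophage genes (6 of 6 detected) summed to 199.8 to 318 and 385 to 1093, without overlap. The part of all these cells was not tested.

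**Figure D5:**
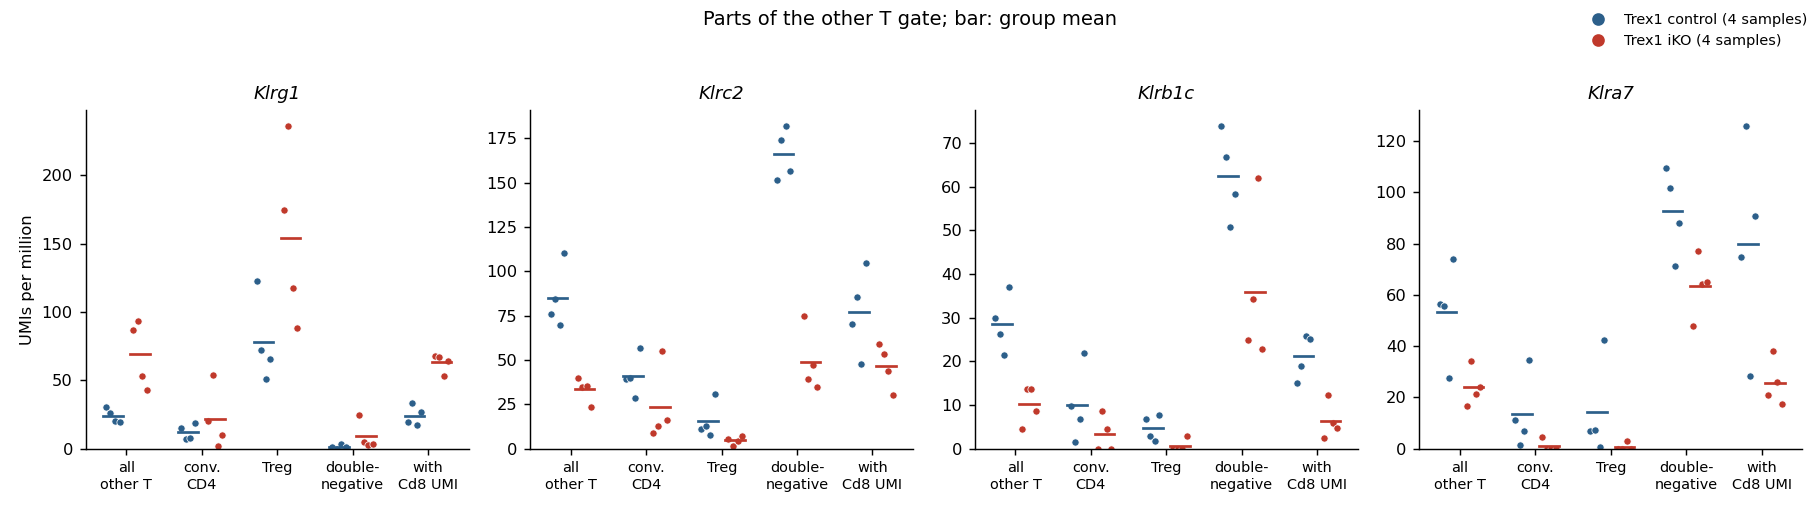
CPM of Klrg1, Klrc2, Klrb1c and Klra7 in all other T cells and in their conventional CD4, Treg, double-negative and Cd8-bearing parts; each point is 1 sample (4 per genotype) and each bar a group mean. Klrg1 is highest in Treg cells, at 154 in iKO and 77.8 in control on average, the genotypes do not overlap for Klrg1 in the Cd8-bearing cells, and Klrc2 separates them in double-negative cells, at 49.02 and 166.

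Whether the genotype difference in other T cells differs from that in CD8 T cells was tested as an interaction. None of 9 members passed, where 0.285% (31 of 10892) of genes were called. The difference of the 2 log2 fold changes was -1.31 (SE 0.28, adjusted p = 0.114) for Klrc2, 1.37 (SE 0.43, adjusted p = 0.288) for Klrg1 and -0.61 (SE 0.46, adjusted p = 0.706) for Klrb1c. For Klrc2 it passed in DESeq2 (adjusted p = 0.0137) and without control sample 3 (adjusted p = 0.0366), and without the low-count filter both Klrc2 (adjusted p = 2.04e-11) and Klrg1 (adjusted p = 1.09e-05) passed. The member results in other T cells are thus not shown to be particular to them.

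NK cells were too few for the planned comparison of genotypes, since only control samples 1 and 3 held at least 10. Klra8 was higher in every iKO NK profile (479 to 606) than in any control (183 to 385), a description with no test. The NK gate used none of the ILC1 genes (Itga1, Cxcr6, Tnfsf10 and Il7r). These 4 summed to 86.1 to 177 CPM in iKO and 154 to 1097 in control NK profiles, and their part was not tested. With a wider NK gate, added after the data were seen, 3 iKO and 4 control samples were compared: none of 10 members passed, where 0.248% (8 of 3221) of genes were called, and the Klra8 ranges overlapped (343 to 417 and 171 to 428). Klrg1 had 71 UMIs in iKO and 5 in control in the wider gate, at 55.4, 70.8, 0 and 53.1 and 17.9, 0, 6.35 and 0 CPM, with a log2 fold change of 2.89 (SE 0.57, adjusted p = 0.0798). It passed in DESeq2 (adjusted p = 0.0172), without the low-count filter (adjusted p = 0.000114) and without control sample 4 (adjusted p = 0.0143). Neutrophil genes summed to 124 to 8104 in iKO and 2021 to 50911 in control in this wider gate, and their part was not tested.

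Shares of cells with a UMI, after thinning every cell to 2000 UMIs, were compared by exact permutation tests in CD8, gamma-delta and other T cells. Of 30 tests, 5 had the smallest two-sided p that 4 against 4 samples allow (0.0286), all in other T cells. None had an adjusted p under 0.05, which would have needed most of the 30 tests to reach 0.0286. In gamma-delta cells, with 3 against 4 samples, the smallest p is 0.0571. The adjusted values therefore cannot decide whether a share differs. The shares that follow are means over samples, with SD. Klrg1 was detected in 9.71 ± 2.56% of iKO and 3.08 ± 1.05% of control other T cells (20.4% and 7.42% unthinned), compared with 0.0799% of B cells. Klrb1c was detected in 2.78 ± 0.688% and 7.05 ± 1.60% (5.05% and 11.9% unthinned) and Klra7 in 4.09 ± 0.739% and 8.20 ± 2.06% (5.49% and 12.5%). Klrd1 was detected in 20.9 ± 2.44% and 30.9 ± 5.64% (38.1% and 44.4%) and Klrk1 in 19.2 ± 1.16% and 27.1 ± 1.69% (35.3% and 40.1%). Each of the 5 had an exact permutation p of 0.0286 and an adjusted p of 0.171, with no overlap between the groups, and Klrc2 (7.21 ± 2.45% and 13.5 ± 2.34%) had p = 0.0571 and an adjusted p of 0.286.

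In addition, 17 other genes of the family were followed beside the members. Against CD8 T cells, 12 of the 13 tested were higher in NK cells and none lower, where 14.7% of all genes were called. Klrb1a (8.65), Klra9 (8.18), Klrb1b (6.93) and Klrb1f (6.66) led. In other T cells, where 14% of all genes were called, 3 of 9 tested were lower in iKO and none higher: Klra5 (-1.54), Klra9 (-1.45) and Klra3 (-1.41). The direction did not hold within the double-negative part of that gate. There 2 of 6 tested were higher in iKO and none lower, where 15.1% of all genes were called. In the part with a Cd8 UMI none of 3 tested passed, where 2.12% of all genes were called. None of 4 tested in CD8 T cells passed, where 3.83% of all genes were called. Within CD8 T cells Klra6 (-6.55), Klra1 (-4.21) and Klra3 (-2.32) were lower in the Pdcd1 cells, as Klra7 was, and Klri2 (1.67) was higher. These were all 4 tested, where 53.9% of all genes were called. Klrh1 was lower in other T than in CD8 T cells (log2 fold change -5.55, adjusted p = 8.54e-06), at 11.02, 11.3, 0 and 0 CPM in iKO and 8.93, 10.5, 0 and 0 in control CD8 T cells. It had 841 UMIs in CD8 T cells, all of them in samples 1 and 2 of each genotype, and none in the 4 other samples, where 3 UMIs, the limit that a count of 0 allows, correspond to 1.11 to 2.21 CPM.

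Of 15 adaptor and signalling genes, 6 of 14 tested were higher and 4 lower in NK than in CD8 T cells. Of all genes 14.7% were called there. The SH2 adaptor Sh2d1b1 (6.13), Tyrobp (4.92), Fcer1g (4.41) and the kinase Syk (3.86) led. Between genotypes, Ptpn11, the gene of a phosphatase recruited by inhibitory receptors, was lower in iKO in CD8 T cells (-0.52 (SE 0.10, adjusted p = 0.0191)) and in other T cells (-0.36 (SE 0.09, adjusted p = 0.0208)), and Hcst was lower in other T cells (-0.45 (SE 0.07, adjusted p = 0.00499)). These were 1 of 13 tested and 2 of 13, with none higher, where 3.83% and 14% of all genes were called. In other T cells the share of these genes called was thus near that of all genes. Of 12 transcription factors, Tcf7 (-1.12) and Lef1 (-0.70) were lower in iKO among the 11 tested in other T cells, again near the 14% of all genes. None passed among 11 in CD8 T cells. In NK against CD8 T cells 6 of 12 were higher and 2 lower, where 14.7% of all genes were called. Zbtb16 (6.26), Tox (-2.49), Eomes (1.76) and Prdm1 (-1.15) led.

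Among 12 ligand genes, H2-T23, which encodes the CD94 ligand Qa-1, and the classical class I genes H2-D1 and H2-K1 were higher in iKO in CD8 T cells (3 higher and none lower of 6 tested), in other T cells (3 higher and 1 lower of 7) and in monocyte/macrophage-gated cells (3 higher and none lower of 9). Of all genes, 3.83%, 14% and 10.6% were called in these gates, in that order. H2-T23 stood at 477, 489, 452 and 424 CPM in iKO and 342, 321, 305 and 257 in control CD8 T cells, and its groups did not overlap in any of the 3 gates. Its log2 fold change was 0.61 (SE 0.10, adjusted p = 0.00715) in CD8 T cells, 0.82 (SE 0.16, adjusted p = 0.0102) in other T cells and 1.23 (SE 0.30, adjusted p = 0.0333) in monocyte/macrophage cells. H2-D1 differed by 0.45, 0.48 and 0.74 and H2-K1 by 0.44, 0.50 and 0.90 in the same order. Clec2i, which encodes a ligand of another NKR-P1 receptor, was lower in other T cells (-0.74 (SE 0.16, adjusted p = 0.0139)).

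In monocyte/macrophage-gated cells, where the members were low, 1 of 4 tested was higher in iKO, where 10.6% (1161 of 10917) of genes were called. Klrc1 stood at 4.43, 4.94, 4.21 and 4.06 CPM in iKO and 1.45, 1.62, 0.507 and 1.66 in control, without overlap, and differed by 1.68 (SE 0.29, adjusted p = 0.0111), or by 2.26 with gates on thinned cells. The CD8 T markers Cd8a and Cd8b1 summed to 19.8 to 25.1 in these iKO cells and 4.18 to 7.72 in control, Cd3d, Cd3e and Cd3g were at 0 by the gate, and their part was not tested. Klrk1 stood at 119, 94.3, 37.7 and 38.9 and 22.5, 42.4, 37.7 and 23.3, with iKO samples 1 and 2 above the rest. Its log2 fold change of 1.23 (SE 0.41, adjusted p = 0.0845) did not pass, but did in DESeq2 (adjusted p = 0.0179), without the low-count filter (adjusted p = 0.0431) and without iKO sample 3 or 4. Klrd1 (-0.56) did not pass, except with gates on thinned cells (-1.04, adjusted p = 0.0493).

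Likeness of pattern was measured as Pearson's r of log2(CPM + 1) over 44 profiles of sample by cell type (NK, CD8, gamma-delta, conventional CD4, Treg and double-negative T cells), among 7760 genes. The profiles share samples and depth, so r is a description. The genes most like Klrd1 were Klrk1 (r = 0.95), Atp8b4 (r = 0.90) and Klrc2 (r = 0.89), those most like Klrk1 Klrd1 (r = 0.95), Sema4a (r = 0.90) and Atp8b4 (r = 0.90), those most like Klre1 Ugcg (r = 0.88), Klrd1 (r = 0.87) and Xcl1 (r = 0.85) and those most like Klrc1 Atp8b4 (r = 0.91), Ctsw (r = 0.91) and Runx3 (r = 0.87). With a pseudocount of 10 in place of 1, 11 of these 12 remained.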

How the data were processed

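The authors deposited raw UMI counts, as whole numbers, in 1 matrix per hashtagged sample, made with Cell Ranger 7.1.0 on GRCm39 per the submitters' processing notes. How introns were counted and how barcodes were assigned to hashtags is not stated in the labels. The matrices held 23731 barcodes. Cells with at least 300 genes and at most 10% mitochondrial UMIs were kept, Scrublet (scanpy 1.11.5, score over 0.25) removed 438 cells, or 1.95% of those scored, and 22052 remained. No barcode was shared within a pool, and 45 were shared between pools. Replicate matrices differed by 8.17 to 238 times the counting noise (chi-square per degree of freedom). Intervals and limits cover counting error only.

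Gates used UMIs per cell of genes other than the members. Counts were summed per sample and gate (at least 10 cells) and tested with edgeR 4.0.16 in R 4.3.3: TMM, filterByExpr, quasi-likelihood test, Benjamini-Hochberg adjustment over all genes tested, threshold 0.05. A standard error is the log2 fold change divided by the square root of F. The scripts were tested on simulated data. Shares used exact permutation tests, 30 in number, adjusted together. Alternatives were DESeq2 1.42.0, library size scaling, no count filter, stricter or thinned gates, 20 cells per profile, no doublet removal, a replicate block and leaving out each sample. Named from fixed lists were the called genes, at most 4 per list and comparison by size of change. Likeness used the 4 members with the highest mean level. The members and lists were chosen with earlier results of these data known. Cd163l1, a gamma-delta marker, was not analysed here.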

Additional observations from a re-analysis of the deposited data

Results flagged for a closer look

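In 78 groups of 4 samples (each member in each gate and genotype), the sample at the edge was compared with the others by Dixon's test, which chance passes in about 1 of 20 groups. In 11 groups 1 sample stood apart. Of these, 3 are in gamma-delta T cells and rest on 1 UMI each.

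In CD8 T cells Klra8 stood at 7.35 CPM in iKO sample 3, with the nearest iKO sample at 0.209, and at 3.91 in control sample 1, with the nearest control at 0.40. Klrb1c stood at 2.45 in the same iKO sample 3, with the nearest at 0.882. Klrc2 stood at 103 in control sample 3, with the nearest control at 67.6. In gamma-delta T cells Klrb1c stood at 226 and Klrd1 at 824 in control sample 1, with the nearest controls at 74.5 and 662. Klrg1 stood at 34.3 in iKO sample 2, from 6 UMIs, with no UMI in any other sample. The Klra4 values of 5.72 in iKO sample 2 and 8.27 in control sample 4, and the Klra8 value of 8.27 in control sample 4, are 1 UMI each. In other T cells Klra4 stood at 8.75 in control sample 3, with the nearest control at 0.383. Sampling noise in 1 or a few cells was not tested for these values.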

How the results depend on the processing

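Of 1268 member results under alternatives, 1154 kept their direction and side of the threshold, 39 passed where the main result did not, 19 no longer passed and 56 changed direction. The genotype comparison in NK cells and its contrast with CD8 T cells could not be fitted as planned, since 2 control samples held at least 10 cells. For gamma-delta cells by genotype, gates on thinned cells and 20 cells per profile left too few samples. In the wider NK gate, stricter gates and 20 cells did so.

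Calls by genotype in CD8 T cells went from 365 to 224 with gates on thinned cells and to 160 to 415 when 1 sample was left out. In gamma-delta cells they went from 18 to 83 without the count filter and to 9 to 47 when 1 sample was left out. In other T cells they went from 1407 to 838 with thinned gates and to 615 to 1506 when 1 was left out, and in monocyte/macrophage cells from 1161 to 349 to 1472. Calls between NK and CD8 T cells went from 1417 to 841 to 1953 when 1 was left out. Thinned gates gave 1513 between gamma-delta and CD8 T cells (20 cells per profile, 1096), 2121 between other and CD8 T cells, 2003 between the CD8 T subsets and 755 between Treg and conventional CD4 T cells. The interaction went from 31 to 52 (DESeq2), 356 (no filter), 0 (thinned gates) and 10 to 21 (1 left out). At an unadjusted p under 0.05 it had 1088 genes. The wider NK gate went from 8 to 46, 235, 30 and 0 to 198 in the same order. Treg cells gave 425 without the filter, 209 with thinned gates and 16 to 211 with 1 left out, and double-negative cells 401 with stricter gates and 536 to 1147. Other T cells with a Cd8 UMI went from 153 to 285 (DESeq2), 314 (no filter), 350 (stricter), 60 (thinned) and 44 to 209 (1 left out). The cause was not tested.

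Directions changed in the following results, of which only Klrc1 in double-negative cells had passed the test. By genotype in CD8 T cells, Klrc2 gave 0.0365 without the filter, 0.0401 with stricter gates and -0.14 to 0.16 with 1 sample left out, Klrd1 gave 0.0469, 0.0181 and -0.19 to 0.15, and Klre1 -0.10 to 0.70 with 1 left out. Klre1 gave -1.02 to 0.0686 in gamma-delta cells, and -0.32 to 0.26 and -0.0364 (DESeq2) in other T cells, where Klrk1 gave 0.11 with thinned gates. Klrc1 in NK against CD8 T cells gave -0.0736 (no filter), -0.24 (stricter), -0.22 (thinned), -0.28 (20 cells) and -0.28 to 0.21 (1 left out). In gamma-delta against CD8 T cells, Klrc1 gave -0.0602 (no filter) and -0.0171 to 0.30, Klrd1 -0.0585 (no filter), -0.41 (thinned) and -0.0585 (20 cells), Klrg1 0.36 (thinned) and 0.66 (20 cells), and Klre1 -0.17 (no filter), -0.0130 (stricter), -0.17 (thinned), -0.24 (20 cells), -0.000938 (no doublet removal) and -0.15 to 0.17 (1 left out). Klrc2 between the CD8 T subsets gave 0.0030 (library size) and 0.17 (thinned). In double-negative cells Klra7 gave 0.0847 (stricter), and with thinned gates Klrc1 gave 0.28 and Klre1 0.18. In other T cells with a Cd8 UMI Klrd1 gave -0.13 (stricter), -0.16 (thinned) and -0.0964 to 0.27 (1 left out), and Klrk1 -0.13 (stricter) and -0.17 to 0.13. Klra7 in Treg against conventional CD4 T cells gave -0.70 to 0.13 with 1 left out.

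Same-numbered samples of the 2 genotypes deviated together with r of 0.58, 0.03, 0.22 and 0.30 in CD8 T cells and 0.15, 0.04, 0.15 and 0.28 in other T cells. The numbers were not taken as pairs, since sample 2 did not exceed the r of 0.1 required of every pair and the labels tie them to no shared animal or day. The profiles are not unrelated across genotypes: in CD8 T cells iKO samples 1 and 2 both had r = 0.58 with control 1, and iKO samples 3 and 4 had r of 0.22 to 0.30 with controls 3 and 4 and of -0.47 and -0.55 with control 1. With a replicate block, calls went to 691 in CD8 T cells and 50 in gamma-delta cells, Klrc2 in CD8 T cells gave 0.0178 and Klre1 in other T cells -0.0211. In other T cells with a Cd8 UMI Klra7 (adjusted p = 0.0179) and Klrb1c (adjusted p = 0.047) passed with it. The iKO samples 2 in both gates and 3 in CD8 T cells did not correlate best with their own number.

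Scaling by library size moved the higher and lower calls from 662 and 499 to 900 and 359 in monocyte/macrophage cells, from 2674 and 2570 to 3285 and 1907 between other and CD8 T cells, from 2228 and 2184 to 2985 and 1567 between the CD8 T subsets (where the median of all genes moved from -0.01 to 0.17), and from 54 and 57 to 75 and 35 in Treg cells. DESeq2 moved them from 912 and 1452 to 1035 and 1065 between gamma-delta and CD8 T cells and from 8 and 0 to 38 and 8 in the wider NK gate. No member call changed sign under either.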

Other observations

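Klrh1, a family member of little-known function, split the CD8 T profiles into separate sets that cross the genotypes. It stood at 11.0 and 11.3 CPM in iKO samples 1 and 2, at 8.93 and 10.5 in control samples 1 and 2, and at 0 in samples 3 and 4 of both genotypes. The UMIs numbered 757 in iKO and 84 in control CD8 T cells, and 1 in NK and 3 in other T cells. The labels give nothing that sets samples 1 and 2 apart from samples 3 and 4.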
